A study of Mus musculus with 10 samples.

Results

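The genes described here encode 3 beta subunits of the sodium-potassium pump (Atp1b1, Atp1b2 and Atp1b3) and 4 FXYD proteins that bind to it (Fxyd1, Fxyd2, Fxyd3 and Fxyd6). These 7 genes, chosen by symbol, are 7 of the 32285 genes in the count tables, and all 7 were measured. They were followed across cell classes of the cochlear and vestibular sensory epithelia of wild-type CBA/J mice aged 22 months, with no treatment and no altered allele. Each single-cell library was made from collagenase-digested tissue pooled from several mice, so an individual mouse cannot be followed. There were 4 libraries per organ (replicates 1, 3, 4 and 5), and nothing in the labels says that a cochlear and a vestibular library with the same number came from the same mice.

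The sodium-potassium pump (Na,K-ATPase) moves sodium out of the cell and potassium into it. Its alpha subunit splits ATP and carries the ions, its beta subunit is needed to fold the pump and bring it to the membrane, and a small FXYD protein can join the complex and adjust its affinity and rate. Alpha and beta isoforms differ between tissues and in their affinity for ions. In the inner ear the pump supports the potassium cycle: marginal cells of the stria vascularis and vestibular dark cells take up potassium through the pump and the cotransporter Slc12a2 and release it into endolymph, while fibrocytes and supporting cells (SCs) are held to return potassium from the perilymph side. Neurons rely on the pump to restore their gradients after firing.

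The libraries held 2592425 to 26974948 unique molecular identifiers (UMIs, counted transcript copies) in 1130 to 12397 barcodes, and replicate 3 was the largest in both organs. Replicate 2 of each organ repeated the cells of replicate 1. All 1313 barcodes of the second cochlear library and 1633 of 1641 of the second vestibular library were in the first, and their counts differed by less than the sampling noise, so the pair counted as 1 sample. After filtering, 7272 cochlear and 10424 vestibular cells were clustered without the 7 genes and 26 related pump and ion transport genes. Clusters were named from marker genes, so every class name stands for cells that are like that type, and clusters that no list named are called by their leading genes. Levels are counts per 1000000 UMIs of the class (CPM), with n = 4 libraries unless stated, and 41 classes had enough cells in at least 3 libraries.

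The 7 genes lie on 4 chromosomes of mm10. Atp1b1 (ENSMUSG00000026576) is on chromosome 1 at 164437109 to 164458355, Atp1b2 (ENSMUSG00000041329) on chromosome 11 at 69599736 to 69605942, and Atp1b3 (ENSMUSG00000032412) on chromosome 9 at 96332655 to 96364442. Fxyd6 (ENSMUSG00000066705; 45370185 to 45396159) and Fxyd2 (ENSMUSG00000059412; 45399669 to 45410278) are neighbours on the plus strand of chromosome 9, with 3509 bases between them. Fxyd1 (ENSMUSG00000036570; 31051678 to 31057199) and Fxyd3 (ENSMUSG00000057092; 31068172 to 31076704) are 10972 bases apart on the minus strand of chromosome 7. Nme7 overlaps Atp1b1 and Lgi4 overlaps Fxyd3 on the opposite strand. The sources name the standard Cell Ranger pipeline and state no strand setting.

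The 7 genes had different ranges. Atp1b1 and Atp1b3 were broad, with a mean of at least 100 CPM in 28 of the 41 classes each. Atp1b2 reached that level in 16 classes and Fxyd1 in 18. Fxyd2 and Fxyd3 were narrow: Fxyd2 was under 20 CPM in 36 of 41 classes and Fxyd3 in 29.

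**Figure D1:**
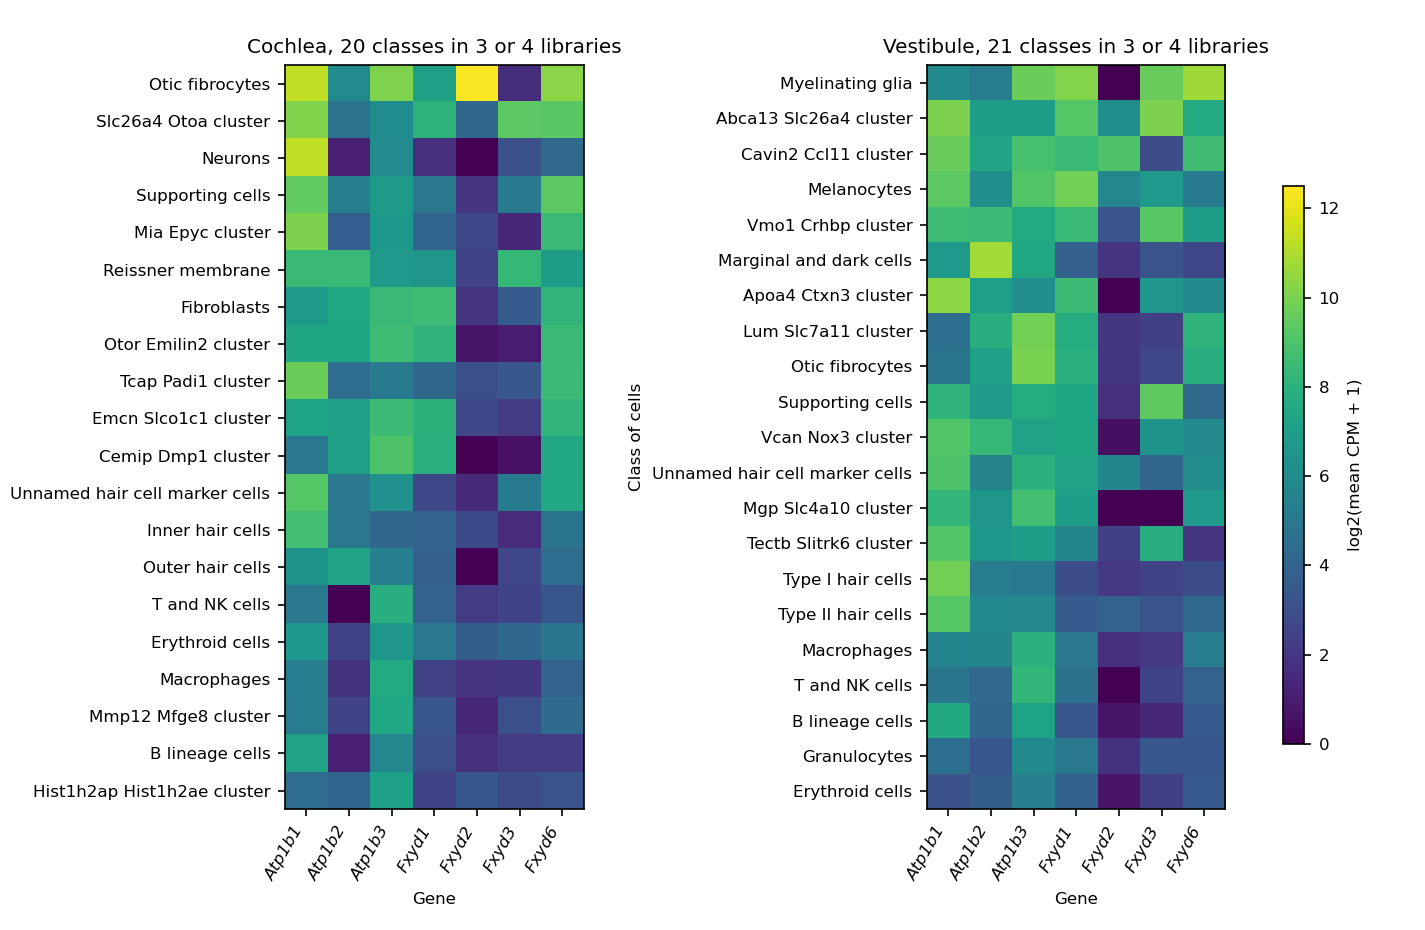
Heatmap of the mean level of the 7 genes, as log2(CPM + 1), in the 20 cochlear and 21 vestibular classes present in 3 or 4 libraries. The cochlear fibrocyte class has the highest Fxyd2 (5497 CPM), in cells that mostly lost that name at a finer clustering. Vestibular marginal and dark cells have the highest Atp1b2 (1750 CPM), and Fxyd6 and Fxyd3 differ between cochlear and vestibular supporting cells.

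Atp1b1 encodes the beta subunit found in most tissues. It was highest in cochlear neurons, at 2986, 2575, 2495 and 2082 CPM in replicates 1, 3, 4 and 5, and in cochlear fibrocytes, at 3305, 2042, 2538 and 2127 CPM. These means, 2534 ± 371 and 2503 ± 577 CPM (SD), did not differ beyond their spread. Neither class overlapped in any library with the next class, a vestibular cluster led by Apoa4 and Ctxn3 at 1329 ± 66.0 CPM. Below it, neighbours overlapped: cochlear Slc26a4 Otoa cells (1124 ± 247), cochlear Mia Epyc cells (1065 ± 132), vestibular Abca13 Slc26a4 cells (1065 ± 140) and type I hair cells (HCs; 926 ± 78.1). Slc26a4 encodes pendrin, an anion exchanger of the endolymph-facing epithelium. Vestibular erythroid cells had the lowest mean, 7.46 CPM. In neurons 98.2% of cells held an Atp1b1 UMI, and 89.8% after each cell was thinned to 1000 UMIs. For cochlear erythroid cells these shares were 16.4% and 5.48%, at a median of 2530 UMIs per cell against 11581 in neurons. Their mean level, 101 ± 33.6 CPM (n = 3), was above the 7.46 CPM of vestibular erythroid cells, so erythroid cells gave no single floor.

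Atp1b2, first known as an adhesion molecule of glia, was highest in the vestibular marginal and dark cells. Replicates 1, 3, 4 and 5 had 1953, 1597, 1836 and 1612 CPM there, a mean of 1750 ± 174 CPM over 106 cells. No library of the next class, a vestibular cluster led by Vmo1 and Crhbp (385 ± 140 CPM), reached these values. Reissner's membrane epithelium (344 ± 128) and vestibular Vcan Nox3 cells (316 ± 69.3) followed, with overlapping libraries. Of the dark cells, 67.0% held an Atp1b2 UMI (59.4% thinned), against 3.42% and 5.39% of cochlear and vestibular erythroid cells. All 6 genes of the marginal cell list were detected in them, with summed levels of 6874 to 9598 CPM, and the fibrocyte list summed to 210 to 3202 CPM. Cochlear marginal cells did not form a named class.

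Atp1b3, the remaining beta gene, was highest in fibrocytes of both organs. Cochlear fibrocytes had 1438, 856, 958 and 1067 CPM (mean 1080 ± 254) and vestibular fibrocytes 923, 1122, 959 and 999 CPM (mean 1001 ± 86.8). Vestibular Lum Slc7a11 cells, which carried fibrocyte and fibroblast markers, had 925 ± 180 CPM. Vestibular glia had 643, 797 and 1049 CPM in replicates 3, 4 and 5 (mean 830 ± 205, n = 3). These 4 classes overlapped one another. Inner hair cells (IHCs) had the lowest mean, 16.5 CPM.

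Fxyd1, or phospholemman, is a regulator of the pump that kinases phosphorylate in muscle and heart. It was highest in vestibular glia (1781, 1106 and 613 CPM, n = 3) and in vestibular melanocytes (1088, 1026, 590 and 908 CPM), and these overlapped. The vestibular Abca13 Slc26a4 cluster had 582 ± 133 CPM and cochlear fibroblasts 397 ± 139 CPM. Neurons had the lowest mean, 2.22 CPM.

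Fxyd2, the gamma subunit first described in the kidney, was found mostly in the cells classed as cochlear fibrocytes. Replicates 1, 3, 4 and 5 had 3120, 4552, 6914 and 7402 CPM, and this class of 298 cells held 10897 of the 11925 Fxyd2 UMIs in all clustered cells. The mean of 5497 ± 2015 CPM was 10.3 times that of the next class, vestibular Cavin2 Ccl11 cells, whose libraries spread from 33.7 and 141 to 907 and 1052 CPM. At a finer clustering 205 of the 298 cells, at 5968 ± 2320 CPM, lost the fibrocyte name. The 93 cells that kept it had 64.2 ± 56.4 CPM (n = 3). No Fxyd2 UMI was seen in 225 neurons or 79 outer hair cells (OHCs), which allows shares of cells with a UMI of up to 1.33% and 3.80%. Such limits cover counting error only and do not bound the share of cells that express the gene at a low level.

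Fxyd3, another small pump regulator, was spread over fewer classes. The vestibular Abca13 Slc26a4 cluster had 1348, 850, 1004 and 1016 CPM (mean 1054 ± 210) and vestibular glia 594, 1003 and 693 CPM (mean 763 ± 214, n = 3). Vestibular SCs (668 ± 59.5), cochlear Slc26a4 Otoa cells (656 ± 371) and vestibular Vmo1 Crhbp cells (620 ± 152) came next and overlapped. Reissner's membrane epithelium (320 ± 58.7) overlapped with the Slc26a4 Otoa cells, whose libraries ran from 205 to 1047 CPM, and not with the Vmo1 Crhbp cells or vestibular SCs.

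Fxyd6, or phosphohippolin, a pump regulator known from brain, was highest in vestibular glia at 1534, 2160 and 1375 CPM (mean 1690 ± 415, n = 3). Cochlear fibrocytes had 1285, 1021, 1606 and 1244 CPM (mean 1289 ± 241). They did not overlap with the next classes, cochlear SCs (647 ± 186) and cochlear Slc26a4 Otoa cells (620 ± 58.2). Vestibular Cavin2 Ccl11 cells (404 ± 10.8), cochlear Tcap Padi1 cells (360 ± 88.5) and cochlear Mia Epyc cells (351 ± 65.8) were lower. Of the UMIs of the 4 FXYD genes, Fxyd6 gave 91.1% ± 1.3 in Tcap Padi1 cells and 93.6% ± 4.7 in Mia Epyc cells. It gave 91.0% ± 3.8 in cochlear SCs, but 45.0% ± 19.5 in Slc26a4 Otoa cells and 34.9% ± 14.5 in Cavin2 Ccl11 cells.

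The cochlear fibrocyte class held the highest or second highest mean of 4 of the 7 genes: Atp1b1, Atp1b3, Fxyd2 and Fxyd6. For Atp1b1, Fxyd2 and Fxyd6 this rests on 205 of its 298 cells, which lost the fibrocyte name at a finer clustering. The other 93 cells kept it and had 557 ± 534, 64.2 ± 56.4 and 177 ± 45.5 CPM of these genes (n = 3). Vestibular fibrocytes, 2204 cells against 298, shared the Atp1b3 level but not the others. Their Atp1b1 was 22.8, 42.4, 33.8 and 13.2 CPM (mean 28.1 ± 12.7), under every cochlear fibrocyte library. Their Fxyd6 was 219, 239, 231 and 254 CPM (mean 236 ± 14.4), below every library of the whole cochlear class but above the 126, 211 and 195 CPM of the 93 cochlear cells that kept the name. Each of the 3 vestibular fibrocyte clusters was low in Fxyd2 (0.515 to 7.86 CPM), low in Atp1b1 (19.2 to 34.2 CPM) and high in Atp1b3 (782 to 1216 CPM). The 2 organs' fibrocytes were not among the planned comparisons and were not tested against each other. The classes rest on different clusters, as those of the SCs do. Of the 5 fibrocyte markers 4, all but Coch, were enriched in the cochlear cluster.

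**Figure D2:**
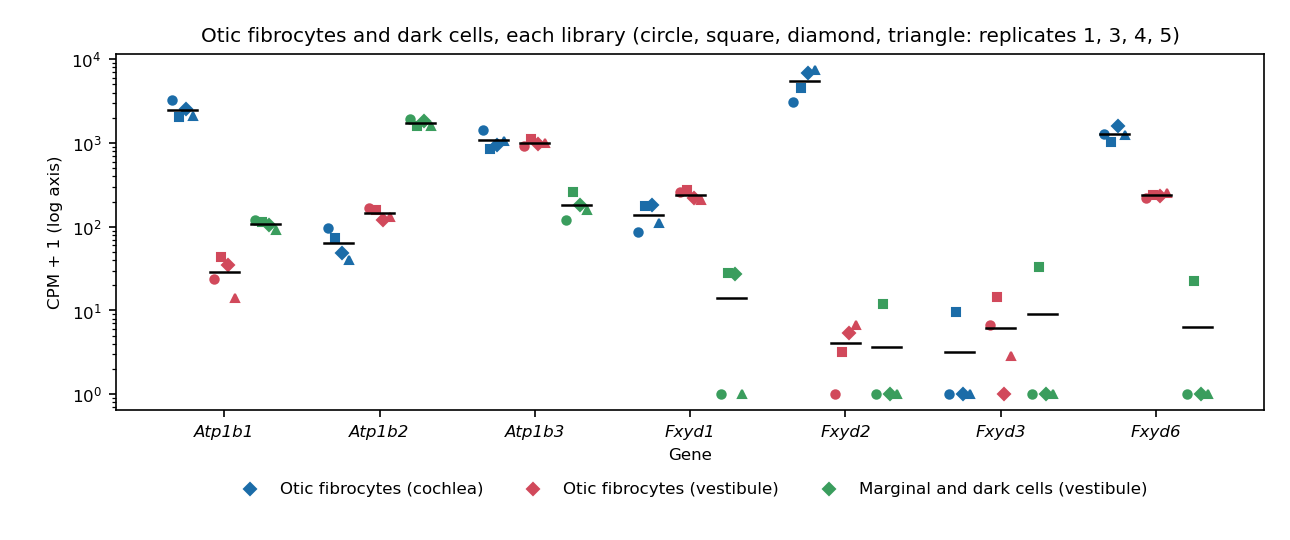
Level (CPM + 1, log axis) of the 7 genes in cochlear fibrocytes, vestibular fibrocytes and vestibular marginal and dark cells. Each point is a library (circle, square, diamond and triangle for replicates 1, 3, 4 and 5) and the black line is the mean. Fxyd2 and Atp1b1 are high in the cochlear fibrocyte class, mostly in cells that lost that name at a finer clustering. Atp1b2 is high in dark cells, and Atp1b3 in both fibrocyte classes.

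The cochlear fibrocyte class was not uniform. At that finer clustering it split into 205 cells that grouped with Kcnk2 and Cox7a1 and 93 cells that were high in Otos and Coch, secreted proteins of inner ear fibrocytes. The other fibrocyte markers did not follow Otos and Coch. Tbx18 was at 270 ± 99.4 CPM in the 205 cells and 91.0 ± 89.6 CPM in the 93 cells. Pou3f4 was at 525 ± 144 and 248 ± 151 CPM, and Car3 at 1585 ± 232 and 1691 ± 460 CPM. The 205 cells had Fxyd2 at 3163, 5026, 7414 and 8270 CPM (mean 5968 ± 2320), Atp1b1 at 2644 ± 552 and Fxyd6 at 1382 ± 246 CPM. The 93 cells, measured in replicates 3, 4 and 5, had Fxyd2 at 0, 106 and 86.9 CPM, Atp1b1 at 251, 246 and 1173 CPM and Fxyd6 at 126, 211 and 195 CPM. Atp1b3 was nearer in both, at 1087 ± 235 and 773 ± 52.7 CPM. The groups also differed in depth, with medians of 5194 and 1332 UMIs per cell, and in Otos, at 1153 and 66234 CPM. The part of depth in this split was not tested.

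Within the 298 cells, those with a Fxyd2 UMI held Atp1b1 and Fxyd6 more often. Of the 138 cells with a Fxyd2 UMI, 96.4% held Atp1b1 and 96.4% held Fxyd6, and of the 160 cells without, 48.1% and 33.1% did. Median depth was 7285 against 1897 UMIs, so each cell was thinned to 1000 UMIs. The shares were then 83.3% against 38.1% for Atp1b1, 68.1% against 21.3% for Fxyd6 and 60.1% against 47.5% for Atp1b3. Of the fibrocyte markers, Otos and Coch went the other way, at 16.7% against 58.8% and 37.0% against 63.8%. Tbx18 (15.9% against 16.9%), Pou3f4 (31.9% against 25.6%) and Car3 (54.3% against 50.6%) were nearer. A Fxyd2 UMI was in 66.3% of the 205 cells and 2.15% of the 93 cells, so this contrast largely repeats the split above. Cells were grouped by unthinned Fxyd2 counts, so thinning did not take depth out of the grouping. These shares pool the cells of 4 libraries and are a description.

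The share of each beta gene in the summed Atp1b UMIs separated the classes. A UMI stands for 1 captured transcript end and is not scaled by length, but capture may differ between genes, so shares are compared between classes and not read as amounts of protein. Atp1b1 gave 97.5% ± 0.8 of these UMIs in neurons, 92.5% ± 1.2 in type I HCs, 83.3% ± 2.1 in type II HCs and 81.9% ± 2.2 in cochlear SCs. In vestibular SCs it gave 46.4% ± 3.3, with Atp1b3 at 34.7% ± 2.9. Atp1b2 gave 85.8% ± 3.4 in dark cells. Atp1b3 gave 85.4% ± 1.8 in vestibular fibrocytes and 89.6% ± 3.4 in vestibular glia (n = 3).

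**Figure D3:**
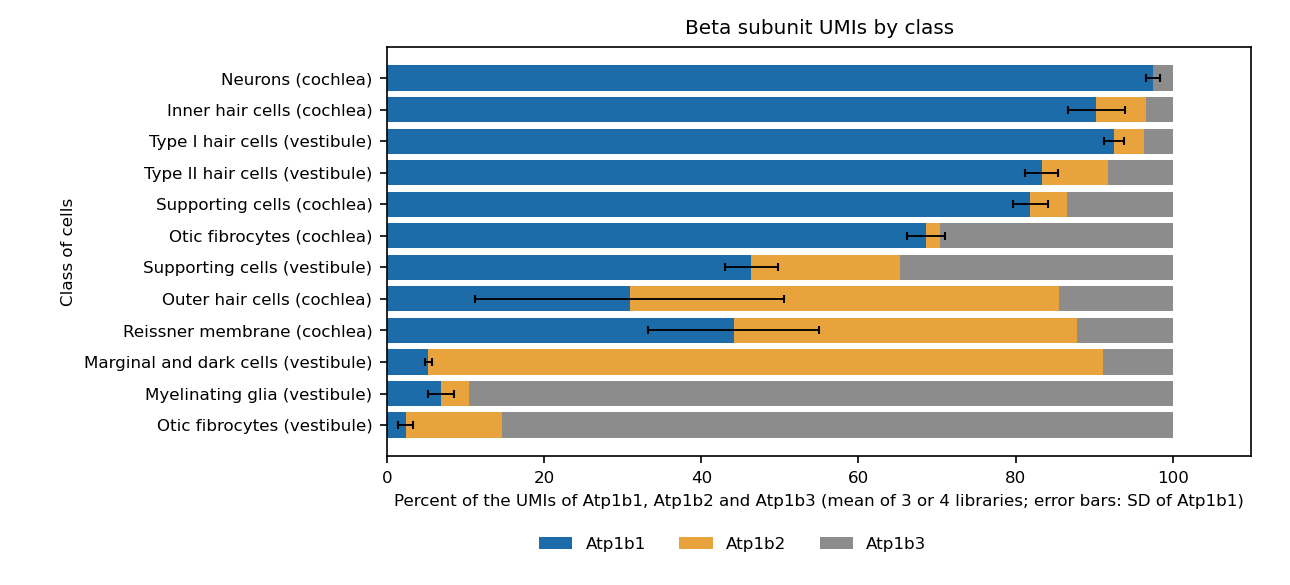
Stacked bars of the mean percent of Atp1b UMIs that came from Atp1b1, Atp1b2 and Atp1b3 in each class, with the SD over libraries of the Atp1b1 share as error bar. Atp1b1 fills 97.5% in neurons, Atp1b2 85.8% in vestibular dark cells and Atp1b3 85.4% in vestibular fibrocytes.

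SCs of the cochlea and the vestibule were compared to see whether these nonsensory cells carry the same subunits in both organs. They were clustered per organ and named from a different marker list in each organ, and the lists share Sox2 and Gjb6. A difference of organ and a difference in the kind of SC therefore cannot be told apart. Fxyd6 was 33.8-fold higher and Atp1b1 2.61-fold higher in cochlear SCs, and Fxyd3 was 17.7-fold lower, with Fxyd1, Atp1b2 and Atp1b3 lower as well. The cochlear class held 1246 cells of 4 clusters and the vestibular class 556 cells of 2 clusters. The RefSeq promoters of Fxyd6 and Fxyd3, the pair with the largest differences of opposite sign, are printed from 250 bases before to 50 after the start (GRCm38.p6), with the CCAAT motif in capitals. The window is chr9:45369935-45370234 on the plus strand for Fxyd6 and chr7:31076648-31076947 on the minus strand for Fxyd3.
Fxyd6: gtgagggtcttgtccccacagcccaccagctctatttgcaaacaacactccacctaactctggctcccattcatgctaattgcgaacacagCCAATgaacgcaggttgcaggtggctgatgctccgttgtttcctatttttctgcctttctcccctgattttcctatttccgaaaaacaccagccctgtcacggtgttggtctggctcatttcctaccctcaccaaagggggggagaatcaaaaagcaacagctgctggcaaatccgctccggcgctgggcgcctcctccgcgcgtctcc
Fxyd3: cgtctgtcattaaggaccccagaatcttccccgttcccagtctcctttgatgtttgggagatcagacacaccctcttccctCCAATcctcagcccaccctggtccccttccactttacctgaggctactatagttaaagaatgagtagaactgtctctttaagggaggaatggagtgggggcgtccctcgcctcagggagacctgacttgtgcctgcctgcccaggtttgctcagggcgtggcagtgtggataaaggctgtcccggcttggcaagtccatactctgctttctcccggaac
Each window held 1 CCAAT, searched on both strands, and neither held GGGCGG or TATAAA. Of 32851 promoter windows of this length, 37.4% held CCAAT, 35.7% GGGCGG and 13.6% TATAAA. The Fxyd6 window held 12 CpG and the Fxyd3 window 7, which is also the median of all windows. The letters in these windows say nothing about which factor acts there.

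Fxyd6 stood at 644, 584, 901 and 458 CPM in cochlear SCs and at 16.6, 22.3, 22.3 and 15.5 CPM in vestibular SCs, so the organs did not overlap. The log2 difference was 5.08 ± 0.29 (SE; edgeR quasi-likelihood test, Benjamini-Hochberg adjusted p = 9.28e-11). Of cochlear SCs, 64.8% held a Fxyd6 UMI (38.2% thinned), and of vestibular SCs 5.58% (2.70% thinned). The unthinned shares of cochlear and vestibular erythroid cells were 8.22% and 6.79%. Vestibular erythroid cells were deeper than vestibular SCs, with medians of 4961 and 2166 UMIs, so these shares do not rank the classes. By level, vestibular SCs overlapped with erythroid libraries of the cochlea (0 to 54.7 CPM) and the vestibule (0 to 21.3 CPM). Fxyd6 in vestibular SCs was therefore not told apart from background. All 4 cochlear clusters were above both vestibular clusters, at 2258 ± 284 (Rubie Lmo3 cells, n = 3), 567 ± 87.9 (Pcdh17 Lockd cells), 466 ± 78.3 (Dgkb Slitrk6 cells) and 158 ± 21.5 CPM (Rbp7 Plbd1 cells) against 18.5 ± 6.56 (Otol1 Slitrk6 cells) and 16.6 ± 20.4 CPM (Hhla1 Zpld1 cells).

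Fxyd3 was the reverse, at 11.4, 45.6, 45.4 and 28.9 CPM in cochlear SCs and 620, 718, 614 and 721 CPM in vestibular SCs. The log2 difference was -4.15 ± 0.30 (edgeR adjusted p = 2.97e-09). A Fxyd3 UMI was in 58.6% of vestibular SCs (38.7% thinned) and 11.2% of cochlear SCs (4.98% thinned), against 4.11% and 1.64% of cochlear and vestibular erythroid cells. The vestibular level differed between clusters: Otol1 Slitrk6 cells had 783 ± 31.4 CPM, while Hhla1 Zpld1 cells had 119 ± 86.5 CPM and cochlear Rubie Lmo3 cells 131 ± 40.0 CPM.

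Atp1b1 was at 810, 591, 718 and 641 CPM in cochlear and 310, 268, 261 and 294 CPM in vestibular SCs, without overlap. Its log2 difference was 1.38 ± 0.19 (edgeR adjusted p = 1.26e-05). The level varied among the clusters of both organs, from 1045 ± 201 CPM in Rubie Lmo3 cells and 933 ± 118 CPM in Pcdh17 Lockd cells to 73.2 ± 48.5 CPM in Rbp7 Plbd1 cells of the cochlea, and from 328 ± 26.9 to 72.9 ± 35.3 CPM in the vestibule. The organ difference holds for the class as a whole and not for every pair of clusters.

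Fxyd1 was at 12.9, 35.7, 67.7 and 9.30 CPM in cochlear and 216, 144, 114 and 170 CPM in vestibular SCs (log2 difference -2.13 ± 0.38, edgeR adjusted p = 0.000199). Atp1b2 was at 48.6, 38.3, 29.2 and 42.4 against 174, 107, 78.1 and 113 CPM (-1.47 ± 0.24, edgeR adjusted p = 9.03e-05). Atp1b3 was at 112, 110, 107 and 118 against 222, 231, 172 and 227 CPM (-0.83 ± 0.19, edgeR adjusted p = 0.00231). The libraries of these 3 genes did not overlap between the organs, but single clusters did not all follow the class. Fxyd1 was 228 ± 103 CPM in cochlear Rubie Lmo3 cells (n = 3), against 170 ± 33.7 and 108 ± 71.8 CPM in the vestibular clusters. Atp1b3 was 178 ± 10.4 CPM in cochlear Dgkb Slitrk6 cells and 151 ± 64.4 CPM in Rbp7 Plbd1 cells, against 113 ± 51.5 CPM in vestibular Hhla1 Zpld1 cells.

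In SCs, 6 of the 7 genes passed the filter on low counts and all 6 were called, 2 higher and 4 lower in cochlear SCs, where 28.7% of all 8127 genes tested were called. Fxyd2 was not tested, at 2.65 ± 0.435 CPM in cochlear and 2.26 ± 2.24 CPM in vestibular SCs. The median log2 difference was -1.15 over the 6 genes and 0.02 over all genes. Of 15 ion transport partners, 7 were tested, 1 higher (the potassium channel gene Kcnj16) and 1 lower (the bicarbonate cotransporter gene Slc4a4).

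Markers of other cells moved with the organ. The 5 fibrocyte markers were all detected in both classes and summed to 518 to 1488 CPM in vestibular SCs and 76.1 to 303 CPM in cochlear SCs, against 29355 to 35719 CPM in vestibular fibrocytes. The 6 HC markers were also all detected and summed to 326 to 433 and 164 to 206 CPM. Erythroid markers ranged from 99.7 to 24600 CPM in vestibular and 129 to 4665 CPM in cochlear SCs. Their part in the result was not tested. Fxyd3 was at 5.25 CPM and Fxyd6 at 236 CPM in vestibular fibrocytes, and vestibular HCs had 5.70 CPM of Fxyd3.

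**Figure D4:**
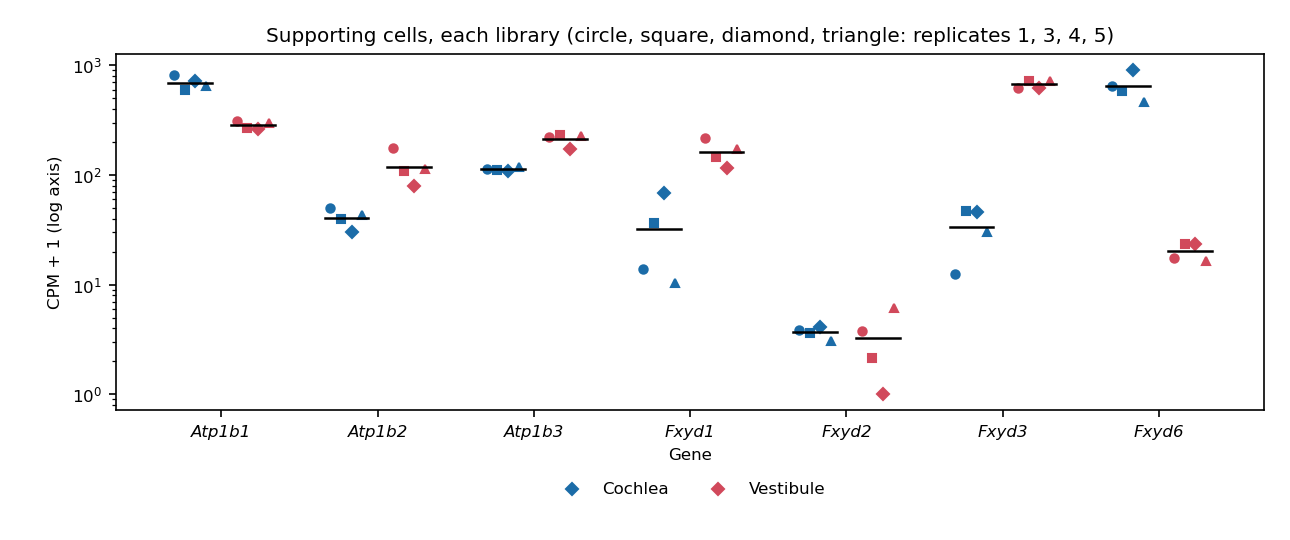
Level (CPM + 1, log axis) of the 7 genes in cochlear and vestibular supporting cells. Each point is a library (circle, square, diamond and triangle for replicates 1, 3, 4 and 5) and the black line is the mean; Fxyd6 and Atp1b1 are higher in every cochlear library, Fxyd3, Fxyd1, Atp1b2 and Atp1b3 in every vestibular library.

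HCs were compared in the same way. Atp1b1 was 2.89-fold lower in cochlear HCs (cHCs) than in vestibular HCs (vHCs), at 27.9, 434, 305 and 289 CPM against 942, 843, 842 and 815 CPM. Its log2 difference was -1.53 ± 0.35 (edgeR adjusted p = 0.00178). Replicate 1 held no named IHC, so its named cHCs were all OHCs, and it was the low library. Atp1b2 was higher in cHCs, at 223, 73.8, 38.1 and 70.4 CPM against 45.5, 50.9, 28.9 and 45.8 CPM, with 1 cochlear library among the vestibular ones (1.03 ± 0.33, edgeR adjusted p = 0.0232). That call was lost without cochlear replicate 1 (0.69, adjusted p = 0.0843), without cochlear replicate 3 (1.11, 0.0714) and without vestibular replicate 4 (0.85, 0.0752). Over all alternatives its adjusted p ran from 0.00857 to 0.445.

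Fxyd6 was at 41.9, 23.1, 19.0 and 23.5 CPM in cHCs and 11.4, 12.9, 11.1 and 0.727 CPM in vHCs. These values did not overlap, but the difference was not called (1.37 ± 0.59, edgeR adjusted p = 0.0848). It was called without vestibular replicate 3 (1.76, adjusted p = 0.0463), with no filter on low counts (1.30, 0.0463) and with the listed genes kept for clustering (1.50, 0.0444), and over the alternatives its adjusted p ran from 5.43e-06 to 0.272. Atp1b3 was at 26.1 ± 7.24 and 40.4 ± 9.17 CPM and was not called (-0.53 ± 0.35, edgeR adjusted p = 0.295). Of the 7 genes 4 were tested and 2 called, 1 in each direction, where 29.7% of 7569 genes were called. Fxyd1, Fxyd2 and Fxyd3 were too low to be tested, with means of 2.31 to 12.4 CPM in cHCs and 5.25 to 7.78 CPM in vHCs. Of the 15 partners 7 were tested and 2 were lower, Slc4a4 and Slc4a7.

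Marker lists of other cells also differed between the organs in HCs. The fibrocyte list summed to 57.1 to 335 CPM in cHCs, with Pou3f4 at 0, and to 271 to 868 CPM in vHCs. The cochlear SC list summed to 3504 to 5876 CPM in cHCs, with Fgfr3 at 0. In vHCs it summed to 2255 to 3023 CPM, with Fgfr3 and Tnnt2 at 0. That list holds Sox2, which typed type II HCs here, and Prox1, a leading gene of a type I subcluster. It also holds Fbxo2, which the paper reports in HCs. Its sum thus includes transcripts of the HCs themselves and does not measure SC RNA. The part of these lists was not tested. A set of 73 cochlear and 219 vestibular cells with HC markers was left unnamed. With them kept, the Atp1b1 difference was -0.79 (edgeR adjusted p = 0.0021), Atp1b2 was not called (0.29, 0.445) and Fxyd6 was called (3.00, 5.43e-06). Of the 73 unnamed cochlear cells, 98.6% held the IHC marker Otof and 5.48% the OHC marker Slc26a5, and 21 came from replicate 1. The 73 cells were left unnamed for their 4 SC markers, and held Fxyd6 at 178 ± 69.6 CPM.

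**Figure D5:**
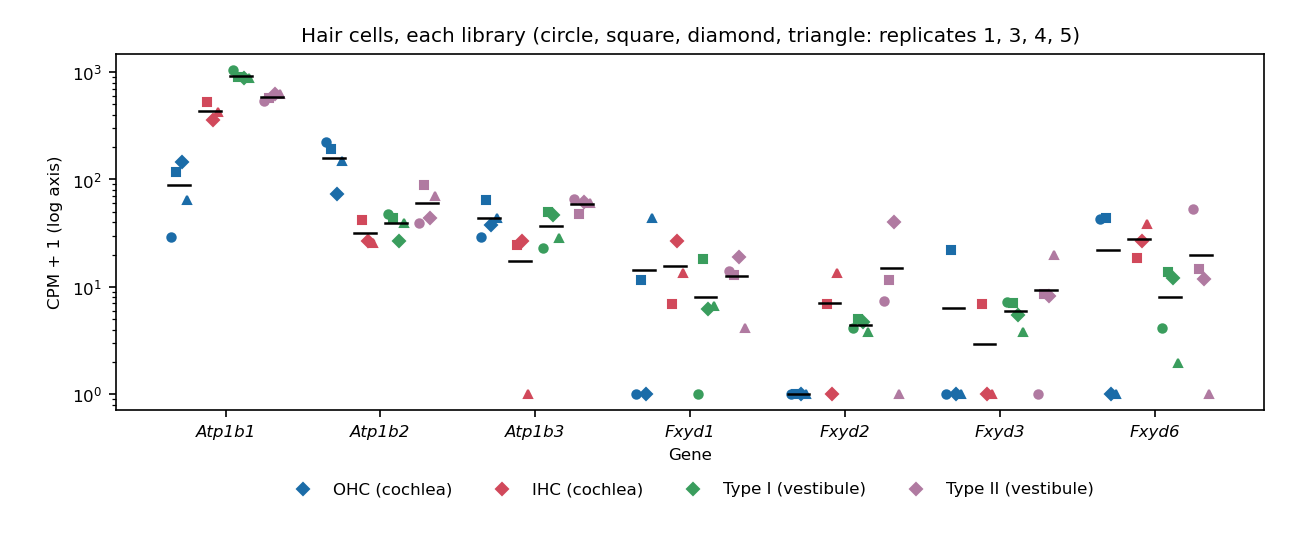
Level (CPM + 1, log axis) of the 7 genes in outer, inner, type I and type II hair cells. Each point is a library (circle, square, diamond and triangle for replicates 1, 3, 4 and 5) and the black line is the mean, and Atp1b1 is lowest in outer hair cells (88.5 CPM) and highest in type I hair cells (926 CPM).

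The HC subtypes differed in Atp1b1. OHCs, the motile amplifier cells of the cochlea, had 27.9, 116, 146 and 63.6 CPM (20 UMIs in 79 cells), and IHCs, its main sensory receptors, had 522, 361 and 421 CPM in replicates 3, 4 and 5. Slc26a5, which encodes prestin, the motor protein that marks OHCs, was at 1270 to 2736 CPM in OHCs. A UMI of Atp1b1 was in 15.2% of OHCs and 68.6% of IHCs, and after thinning in 8.86% and 27.1%. The unthinned OHC share is near that of cochlear erythroid cells. In OHCs Atp1b2 was at 223, 190, 72.9 and 148 CPM and gave 54.6% ± 21.2 of 74 Atp1b UMIs, while IHCs had 30.6 ± 9.26 CPM of Atp1b2. OHC and IHC libraries did not overlap in Atp1b1. This difference is given without a test, as 8 to 33 OHCs and 0 to 46 named IHCs per library carried it.

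In the vestibule, type I HCs, which sit in a nerve calyx, had more Atp1b1 than type II HCs, which take bouton synapses. Replicates 1, 3, 4 and 5 had 1042, 903, 886 and 873 CPM in 1505 type I cells and 536, 571, 629 and 620 CPM in 282 type II cells, with no overlap. The log2 difference within libraries was 0.72 ± 0.10 or 1.65-fold (edgeR adjusted p = 5.27e-09). Atp1b2 was lower in type I cells, at 47.2, 42.5, 26.0 and 38.8 against 38.8, 88.6, 43.1 and 69.2 CPM, with overlap (-0.75 ± 0.20, edgeR adjusted p = 0.0020). It was lower in 3 of 4 libraries. That call was lost without replicate 3 (-0.47, adjusted p = 0.296) and with DESeq2 (-0.62, 0.247), over an adjusted p of 0.000112 to 0.296 in all alternatives.

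Atp1b3 was at 22.0, 48.8, 45.2 and 27.4 CPM in type I and 64.6, 46.6, 61.1 and 59.8 CPM in type II HCs, and was not called (-0.38 ± 0.21, edgeR adjusted p = 0.21). Without replicate 3, the library where type I was higher, it was called (-0.81, adjusted p = 0.026, against 0.026 to 0.672 over all alternatives). Fxyd1 was the fourth gene tested and was not called (-0.17 ± 0.52, edgeR adjusted p = 0.866). In these cells 4 of the 7 were tested and 2 called, where 25% of 9046 genes were called. Of the 15 partners 8 were tested, 4 higher and 2 lower. The potassium channels Kcnj13 (4.56) and Kcnj16 (2.77) and the transporter Slc4a4 (1.28) were among those higher in type I HCs on the log2 scale. The sodium-calcium exchanger Slc8a1 (-5.98) and Slc12a2 (-1.65) were lower. Slc8a1 was the leading gene of a subcluster of 58 of the 282 type II HCs. The part of this subcluster in the difference was not tested.

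Vestibular HCs and SCs lie in the same epithelium and were compared within libraries. HCs held more Atp1b1, at 942, 843, 842 and 815 CPM against 310, 268, 261 and 294 CPM in SCs (log2 difference 1.49 ± 0.13, edgeR adjusted p = 4.46e-24). Fxyd3 was 126-fold lower in HCs, at 5.70 ± 0.832 against 668 ± 59.5 CPM (-6.98 ± 0.18, edgeR adjusted p = 6.01e-96). Fxyd1 (-4.02 ± 0.19), Atp1b3 (-2.46 ± 0.14) and Atp1b2 (-1.50 ± 0.16) were lower in HCs too, with edgeR adjusted p of 5.76e-51, 2.06e-41 and 2.44e-17. Without replicate 3 the Fxyd1 difference was -4.96. Fxyd6 was low in both, at 9.01 ± 5.57 and 19.2 ± 3.66 CPM, and was not told apart from background. Its call (-1.12 ± 0.36, edgeR adjusted p = 0.00446) was lost at a finer clustering (-0.73, 0.122) and with unnamed HC marker cells kept (-0.50, 0.194), over 0.00368 to 0.852 in all alternatives.

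In all, 6 of the 7 were tested and called, 1 higher and 5 lower in HCs, where 64.4% of 10384 genes were called. The median was -1.98 over the 6 and 0.07 over all genes. Of the partners 11 were tested, 4 higher and 5 lower in HCs. A vestibular cluster of 272 cells led by Tectb and Slitrk6 carried both HC and SC markers and was set aside. Its Atp1b1 was 549 ± 24.7 CPM and its Fxyd3 219 ± 63.0 CPM, between the levels of the HCs and the SCs.

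Macrophages served as a cell type present in both organs outside the epithelium. Only Atp1b3 passed the filter there, and it was not called (log2 difference -0.27, edgeR adjusted p = 0.766). DESeq2 did not call Atp1b3 either, and its unadjusted edgeR p was 0.44, where edgeR called 0.97% of 2578 genes. The others of the 7 genes were too low to be tested, so macrophages say nothing about them. Of the partners 1 was tested and not called. Fibrocyte markers summed to 264 to 870 CPM in cochlear and 1068 to 8741 CPM in vestibular macrophages, and their part in the values was not tested.

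Classes in fewer than 3 libraries are given as values. A cochlear cluster of 139 cells led by Dct and Hpse, with melanocyte and marginal cell markers together, held 2767 and 3720 CPM of Atp1b1 in replicates 3 and 5. It also held Fxyd3 at 1665 and 1902 CPM, Atp1b3 at 876 and 727 CPM and Fxyd1 at 612 and 476 CPM. Atp1b1 in replicate 5 and Fxyd3 in both libraries were above every library of the 41 classes. Replicate 5 held only 8 of these cells, and replicate 3 held 131. Cochlear glia were too few in 2 of 4 libraries, and replicates 1 and 3 differed, with Fxyd6 at 32.9 and 361 CPM and Fxyd1 at 132 and 410 CPM.

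Genes with the most similar profile were sought by the correlation of log2(CPM + 1) over the 41 classes, among 14318 genes. Classes of 1 library share its depth and free RNA, so these are descriptions. Atp1b1 was nearest to Nme7 (r = 0.83), the gene that overlaps it, then Mapk12 (0.80) and Pmm1 (0.79). Atp1b2 was nearest to Twsg1 (0.86), Casc4 (0.81) and Sorbs3 (0.81), and Atp1b3 to Zcchc24 (0.81), Marveld1 (0.80) and Selenop (0.79). Fxyd1 was nearest to Snhg18 (0.91) and Rarres2 (0.88). Fxyd2 was nearest to 2900042K21Rik (0.83), A430027H14Rik (0.72) and Grm4 (0.72), Fxyd3 to Kif19a (0.83), Il1rapl1 (0.83) and Erbb3 (0.81), and Fxyd6 to Mir100hg (0.83), Itih5 (0.81) and Slc7a2 (0.81). Among the 7 themselves the highest r was 0.65, between Fxyd1 and Fxyd6, and the lowest -0.14, between Atp1b1 and Atp1b3.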

How the data were processed

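Single-cell RNA of cochlear and vestibular sensory epithelia was analysed. The authors made UMI counts per gene and barcode with Cell Ranger on mm10 (Chromium 3' v3.1), and deposited them as raw counts, not normalized, for barcodes called as cells. Per the file headers, replicates 1 and 2 of each organ used version 5.0.1, and 6.1.2 was used otherwise. Young mice were not analysed here. The members and gene lists were chosen with earlier results of these data known. Replicates 1 and 2 (chi-square per gene 0.127 and 0.122, against 35.6 and 55.5 for replicates 1 and 4) were averaged as 1 sample; shares and cells are those of replicate 1. Other pairs of libraries shared at most 41 barcodes.

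Cells with 200 or more genes, 1000 or more UMIs and under 25% mitochondrial UMIs were clustered per organ in Seurat 5.3.0 (2000 variable genes, 30 components, resolution 1, HCs again at 0.5), without the 33 listed genes, of which 16 in the cochlea and 17 in the vestibule were otherwise variable. A cluster was named where at least 3 markers of a list were enriched (25% of cells, log2 fold 1). HCs were typed by Sox2, Adam11, Slc26a5 and Otof in 50% of cells. The rules for leaving a cluster without a name were made with the clusters in view, and 44.2% of cochlear and 37.9% of vestibular cells stayed unnamed. The cochlear glia lacked enriched Sox10. Marginal cells were named from markers that include partner genes (among them Kcnq1, Kcne1, Bsnd and Slc12a2). No doublet caller was run. The marker-mixed cells above were set aside.

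Levels used classes with at least 5 cells per library. UMIs summed per library and class were tested in edgeR 4.0.16 (R 4.3.3) by the quasi-likelihood test, after TMM scaling and the default removal of low genes, with Benjamini-Hochberg adjustment over all genes tested and a threshold of 0.05. The 3 organ comparisons had no covariate, and the 2 comparisons within the vestibule had library as a covariate, since both classes come from the same libraries (correlations of deviations 0.151 to 0.223 and 0.12 to 0.259). Named are the 7 members, other listed genes called in a comparison, and the 3 most similar genes with at least 20 CPM in a class. Some of these genes are not reported here. The tests were tested on simulated data. DESeq2 1.42.0 was an alternative. Counting errors and limits cover counting only. The p-values rest on the spread between pooled libraries, with the spread of each gene drawn toward that of all genes tested. Very small p-values thus lean on the spread of other genes. Promoters are RefSeq's for 5 of the 7 genes.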

Additional observations from a re-analysis of the deposited data

Results flagged for a closer look

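A library was marked where it stood far from the other 3 of its group, by Dixon's ratio. Of 79 groups of 4 libraries checked, 11 were marked, and chance marks about 1 in 20 groups. In 8 of the 11 the other 3 libraries were at 0. These were Fxyd3 in cHCs and in OHCs of cochlear replicate 3 (9.23 and 21.2 CPM), Atp1b2, Fxyd1, Fxyd2 and Fxyd3 in macrophages of cochlear replicate 3 (10.2, 17.4, 11.3 and 12.3 CPM), and Fxyd2 and Fxyd3 in macrophages of vestibular replicate 3 (9.24 and 12.7 CPM). Replicate 3 had the highest total UMIs of each organ, but not the highest median per cell. It also had the most UMIs in these classes. Cochlear macrophages had 976461 UMIs in replicate 3 and 35067 to 83335 in the others, and vestibular macrophages 865452 and 46106 to 428927. For cHCs these were 433561 and 71635 to 127879, and for OHCs 94501 and 27422 to 71635. The part of these totals in the marks was not tested.

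The vestibular Abca13 Slc26a4 cluster held 271 CPM of Fxyd2 in replicate 5, against 0, 1.69 and 0 CPM in replicates 1, 3 and 4. Fxyd6 in vHCs was 0.727 CPM in replicate 5 and 11.1 to 12.9 CPM in the others. Atp1b3 in vestibular SCs was 172 CPM in replicate 4 and 222 to 231 CPM in the others, and its organ difference was called without that library too.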

How the results depend on the processing

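The alternatives were other size factors, DESeq2, no filter on low counts, the replicate number as a block or its removal, replicate 1 alone, a finer clustering, the listed genes kept for clustering, a minimum of 2000 UMIs per cell, each library left out and, added after seeing the data, the unnamed HC marker cells kept. Of the log2 differences of the 7 genes, 287 kept direction and side of the threshold, 8 lost and 5 gained a call, and 1 turned: Fxyd6 in vHCs against SCs was 0.12 (edgeR adjusted p = 0.852) at 2000 UMIs. All 6 calls in SCs between the organs held in every alternative run. The number of the 7 called in cHCs against vHCs ranged from 1 to 3 when a library was left out. It was 1 of 7 for type I against type II HCs with DESeq2, where Atp1b2 was lost. The causes were not tested.

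Same-numbered cochlear and vestibular libraries correlated from 0.037 to 0.097 in HCs, 0.0677 to 0.313 in SCs and -0.08 to 0.134 in macrophages. As not every pair exceeded 0.1 and no label names a shared source, the organs were not treated as paired. In HCs and SCs, though not in macrophages, each library correlated best with its own number, which is a hint from the data and not from the design. With the replicate block, 2, 6 and 0 of the 7 were called in HCs, SCs and macrophages (2419, 3349 and 49 of all genes). Without it, 2 and 6 were called for type I against type II HCs and for vHCs against SCs (1414 and 5463 of all genes).

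Over all genes, no filter gave 3675 calls in SCs and 174 in macrophages, and DESeq2 gave 1263 for the HC types. In macrophages the finer clustering gave 10 calls and the kept genes 14. Leaving out vestibular replicate 1 gave 67, replicates 3 or 4 gave 0 and replicate 5 gave 3. Of the levels, 149 moved by less than 1 SD and 9 by more. In cochlear fibrocytes the finer clustering gave 48.1 CPM of Fxyd2, 400 of Atp1b1 and 137 of Fxyd6, since most Fxyd2 cells were then in an unnamed cluster, and 2000 UMIs gave 1998, 1180 and 708 CPM, with 695 of Atp1b3. Dark cells then had 2109 CPM of Atp1b2 and vestibular SCs 560 of Fxyd3. Marginal cells, glia and melanocytes had under 3 cochlear libraries, so their organ comparisons were not run.

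Low counts limit the values of OHCs (20 Atp1b1 UMIs) and of FXYD genes in HCs. Neither free RNA nor doublets were corrected.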

Other observations

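Some vestibular clusters came almost wholly from replicate 3 and entered no comparison. Of these, 135 cells led by Bpifa1 and Wfdc18 held 1153 CPM of Fxyd3. A further 108 cells led by AU040972 and Ly6a held 360 CPM of Fxyd3 and 850 CPM of Atp1b1.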
